A study of Mus musculus with 12 samples.

Results

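Gusb encodes β-glucuronidase, a lysosomal hydrolase, and its transcript was followed through 4 treatments of RAW264.7 cells, a mouse macrophage line transformed by Abelson leukemia virus. It is 1 of the 15 genes that the array files name by a RefSeq accession, here NM_010368.1, which matched the symbol Gusb in the RefSeq table. The gene was picked on its own measured values, namely a lower signal with LPS than with DMSO and a higher signal when AdipoAI preceded LPS, so every Gusb difference below is a description and no p-value is given for it. The groups were DMSO, the vehicle, for 24 h; LPS, a bacterial lipopolysaccharide that activates macrophages through TLR4, for 6 h; AdipoAI, a small-molecule agonist of the adiponectin receptors that some labels call APR3, for 24 h; and AdipoAI+LPS, in which AdipoAI for 24 h was followed by LPS for 6 h. Each group had 3 1-colour arrays, 12 in all, and the protocol text attached to every sample gives 100 ng/ml as the LPS dose. The labels give no dose of AdipoAI or of DMSO. Whether the LPS cells spent time in vehicle before LPS is also not given, so that LPS and any such difference in handling cannot be told apart. Nothing in the labels says that the arrays of a group came from separate cultures, so the spread between arrays may be technical. The study asked how AdipoAI acts against the LPS response of macrophages.

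β-Glucuronidase works as a tetramer in lysosomes, where it removes terminal glucuronic acid from the ends of glycosaminoglycan chains such as heparan, dermatan and chondroitin sulfate. Most of the enzyme reaches the lysosome by a mannose 6-phosphate tag, part of it can be secreted and taken up again by other cells, and its inherited loss causes mucopolysaccharidosis with storage in macrophages among other cells. Macrophages are rich in lysosomes and in this enzyme. Because it is transcribed in nearly every tissue, Gusb is also in common use as a reference gene for quantitative PCR.

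The sequence around the annotated start of Gusb is given for orientation, since the arrays measured the transcript and not this region. It is the only sequence of the gene in the tables used here. RefSeq places it on mouse assembly GRCm38.p6, minus strand, chr5:130003000-130003299, which covers 250 bases before the start and 50 after it and lies in the promoter and the beginning of the transcript. The array design itself refers to the older build mm9, and no coordinate of the probe is used. The capitals mark the letters TGACGTCA, the palindromic cyclic AMP response element, which is the same on both strands and spans positions -4 to 4 around the start.

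Gusb promoter: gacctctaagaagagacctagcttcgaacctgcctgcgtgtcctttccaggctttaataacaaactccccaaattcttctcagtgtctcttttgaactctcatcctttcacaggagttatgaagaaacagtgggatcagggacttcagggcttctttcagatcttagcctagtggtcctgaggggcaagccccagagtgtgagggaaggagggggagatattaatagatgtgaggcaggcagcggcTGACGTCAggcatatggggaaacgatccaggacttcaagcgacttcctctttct

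These letters occur in 1.79% of the 32851 promoter windows of the same length in the table. The E-box core of the CLEAR element, which marks many genes of the lysosome, has the letters CACGTG. It was not found on either strand of the Gusb window and occurs in 7.15% of all windows. An AP-1 site with the letters TGACTCA, found in 5.2% of the windows, was likewise not in that of Gusb on either strand. The same held for a TATA box, searched on both strands by the letters TATAAA, which 13.6% of the windows contain. The letters searched were chosen after the Gusb sequence had been seen, and a match or its absence in this window says nothing about a factor. The table lists 4 curated mRNAs of Gusb, and which of them the probe detects was not given in the sources used here.

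The level of Gusb on an array is the mean of its 20 spots on a log2 scale after quantile normalization, which gives all arrays the same distribution of values. In DMSO cells it was 14.49, 14.34 and 14.34, a mean of 14.39 ± 0.09 (SD, n = 3). In LPS cells it was 13.56, 13.47 and 13.45, with a mean of 13.49 ± 0.06 (SD, n = 3). All LPS arrays lay below all arrays of the other groups, and the highest LPS array was 0.78 below the lowest DMSO array. The difference of LPS from DMSO was -0.90 on the log2 scale, with a standard error of 0.10 from the limma fit of all 12 arrays, so that LPS cells had 0.536 times the DMSO signal. In this fit the spread of a probe is drawn toward that of all probes. The standard errors of Gusb here and below are thus not measures of Gusb alone. With no filter on dim probes, that of LPS minus DMSO was 0.07. In RNA of a whole culture, fewer cells that carry a transcript and less of it per cell cannot be told apart.

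AdipoAI alone gave Gusb levels of 14.72, 14.78 and 14.85, a mean of 14.78 ± 0.06 (SD, n = 3). On this normalized scale these arrays lay above all others. With no normalization between arrays, DMSO replicate 1, at 14.7, was above AdipoAI replicate 1, at 14.68. The mean was 0.39 (standard error 0.10) above DMSO on the log2 scale, or 1.31 times the DMSO signal.

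With AdipoAI before LPS, the levels were 14.49, 14.64 and 14.66, and the mean was 14.60 ± 0.09 (SD, n = 3). Every AdipoAI+LPS array lay above every LPS array. The difference between these groups was 1.10 on the log2 scale (standard error 0.10), or 2.15 times the LPS signal.

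**Figure D1:**
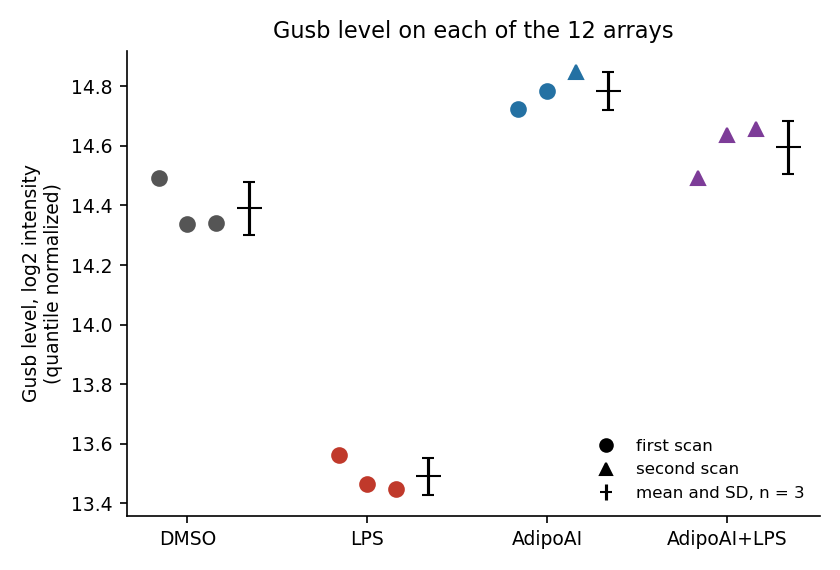
Gusb level on each of the 12 arrays (vertical axis, log2 intensity after quantile normalization) by treatment group (horizontal axis), with circles for arrays of the first scan, triangles for the second, and the mean and SD of 3 arrays beside each group. The LPS arrays sit between 13.45 and 13.56, below all others, and the AdipoAI+LPS arrays between 14.49 and 14.66, near or above the DMSO arrays.

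In rising order of the mean, the groups were LPS, DMSO, AdipoAI+LPS and AdipoAI. AdipoAI+LPS was 0.21 (standard error 0.10) above DMSO, and these neighbours met at 14.49, where DMSO replicate 1 and AdipoAI+LPS replicate 1 had the same normalized value. On this scale the groups met at that value alone. Scaled to the 75th percentile of each array they did not overlap, with the highest DMSO array at 7.91 and the lowest AdipoAI+LPS array at 8.03. With no normalization between arrays they overlapped. AdipoAI+LPS was 0.19 (standard error 0.10) below AdipoAI alone, and the lowest AdipoAI array was 0.07 above the highest AdipoAI+LPS array.

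LPS thus went with unequal differences in Gusb with and without AdipoAI. LPS minus DMSO was -0.90, whereas AdipoAI+LPS minus AdipoAI was -0.19. The difference between these, which equals the AdipoAI difference with LPS minus that without it, was 0.71 with a standard error of 0.14. It was not tested, because the gene was picked on the same arrays. The stated hours of treatment also differ between the groups, so that treatment and time cannot be told apart in it.

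The arrays were scanned in 2 batches, 8 in the first and 4 in the second. DMSO, LPS and AdipoAI replicates 1 and 2 were in the first, and AdipoAI replicate 3 and all AdipoAI+LPS arrays in the second. Within the first scan LPS minus DMSO was -0.90 and AdipoAI minus DMSO was 0.36, and within the second scan AdipoAI+LPS minus AdipoAI replicate 3 was -0.25. LPS and AdipoAI+LPS shared no scan, so their difference cannot be had within one. With the scan as a block it was 1.01 (standard error 0.18), and AdipoAI+LPS minus DMSO, which share no scan either, was then 0.11 (standard error 0.18). The value of 0.71 above was then 0.65 (standard error 0.17). That block rests on the AdipoAI group, where the array of the second scan was 0.10 above the mean of the others.

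Across all 33692 probes tested, 12.6% were at least as far below DMSO in LPS as Gusb, 16.9% were at least as far above DMSO in AdipoAI, and 2.89% were at least as far above LPS in AdipoAI+LPS. Probes at least as far as Gusb in both its LPS difference and its AdipoAI+LPS minus LPS difference numbered 315, Gusb included. Of these, 173 also had at least its difference of AdipoAI from DMSO. Among the 1088 probes with a mean level at or above that of Gusb, 4 were at least as far in the first 2 differences, Gusb included. The spread of Gusb between arrays of a group was small, with a pooled SD of 0.08 on the log2 scale against a median of 0.24 over all probes. Most of these have a single spot while Gusb is the mean of 20. Gusb was also bright, above 94.8% to 97.6% of the probes depending on the array. What makes its spread small was not tested.

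The 20 spots lie at fixed places between rows 33 and 326 of the 384 rows of the array and between columns 11 and 127 of 164. They show how precisely an array read this transcript, and are not replicates of a condition. On the scale of the scanner files, before any normalization between arrays, the mean spot intensity was 26625, 22042 and 19604 in DMSO and 11984, 12198 and 11671 in LPS. For AdipoAI it was 26292, 28062 and 30418. The AdipoAI+LPS arrays had 23231, 21950 and 21228. No spot of the LPS arrays, the brightest at 13137, reached the dimmest spot of the other groups, at 16907. All 240 spots were well above background and none was saturated, and the median spot signal was 533.3 to 1510.5 times the median local background, depending on the array.

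**Figure D2:**
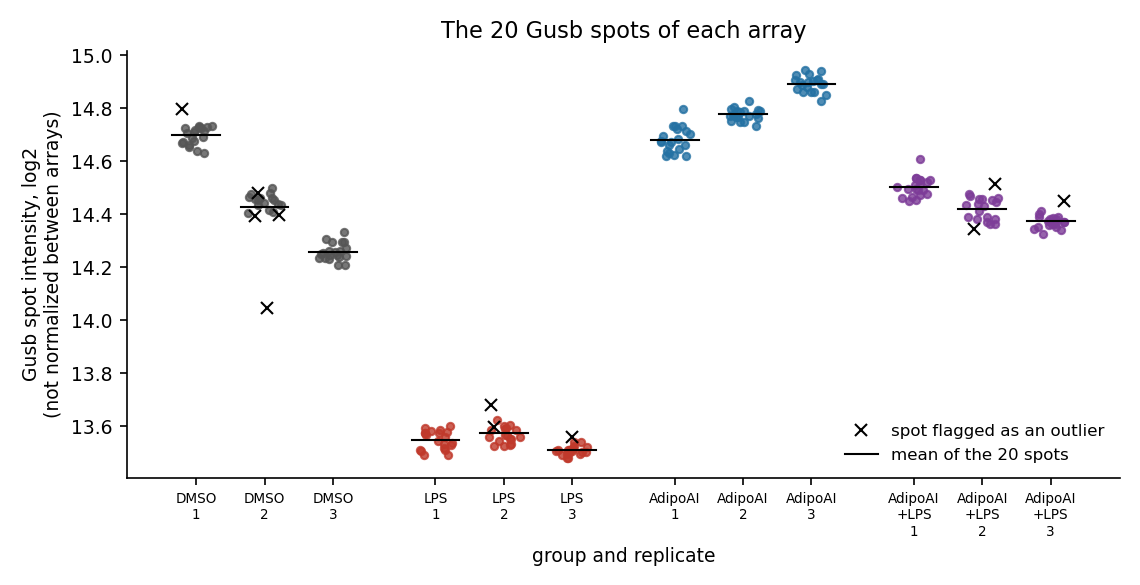
The 20 Gusb spots of each array (vertical axis, log2 intensity of the scanner file, not normalized between arrays) by group and replicate (horizontal axis), with a line at the mean of the spots and crosses for spots that the scanner software flagged as outliers. Spots of an array lie close together, apart from a single low spot of DMSO replicate 2, and all LPS spots lie below all others.

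The SD of the spots of an array was 0.02 to 0.09 on the log2 scale, with a median of 0.04, so that the standard error of an array's mean from its spots had a median of 0.008. Arrays of 1 group varied more than that, by a pooled SD of 0.13 before and 0.08 after quantile normalization. DMSO replicate 2 had the widest spots, at a coefficient of variation of 5.87%, and it held 4 of the 11 spots flagged as outliers, which came from 6 arrays. Without the flagged spots the 3 main differences were -0.91 for LPS minus DMSO, 0.39 for AdipoAI minus DMSO and 1.11 for AdipoAI+LPS minus LPS. Place by place, LPS minus DMSO lay between -0.93 and -0.79, and AdipoAI+LPS minus LPS between 1.07 and 1.18. AdipoAI minus DMSO lay between 0.36 and 0.50. The places share the same arrays, so these ranges show the precision of the spots alone. The mean of a place, set against the mean of its array, ran from -0.03 to 0.03.

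The other genes named by an accession are mostly of the kind used as references, which gives a second scale for Gusb. Of these 14, Ldhal6b was not well above background on any array, and 13 were tested. Gusb was set against each of the 13 in turn on the same array, with no normalization between arrays. LPS minus DMSO was then below 0 for all 13, with a median of -0.89. It ran from -2.34 against Gk, the dimmest of the 13, to -0.27 against G6pd2. AdipoAI+LPS minus LPS was above 0 for all 13, from 0.80 against G6pd2 to 1.56 against Tbp, with a median of 1.23. With each of the 13 as reference, all LPS arrays lay below all arrays of the other groups. These ratios share the Gusb values and are not 13 independent results.

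The smaller Gusb differences depended on the gene it was set against. AdipoAI minus DMSO was above 0 against 12 of 13, with a median of 0.46 and a highest value of 0.95 against Nono, and was -0.33 against Tfrc, the transferrin receptor of iron uptake. AdipoAI+LPS minus DMSO was above 0 against 9 and below 0 against 4, from -0.78 with Gk, glycerol kinase, to 0.73 with Rpl13a, a protein of the large ribosomal subunit. AdipoAI+LPS minus AdipoAI was below 0 against 11, down to -0.97 with Gk, and above 0 against G6pd2 at 0.18 and Tuba1b at 0.16. Against the mean of the 13, the Gusb difference was -1.01 for LPS minus DMSO and 0.46 for AdipoAI minus DMSO. That for AdipoAI+LPS minus LPS was 1.23. Some of the 13 differed between groups themselves, as given below, and this mean moves with them. The group means of Gapdh, Ppia and Hsp90ab1 varied least after quantile normalization. Against these, LPS minus DMSO was -0.89, -0.89 and -0.93, and AdipoAI+LPS minus LPS was 1.15, 1.17 and 1.24. Gapdh, Ppia and Hsp90ab1 were singled out on the same arrays for their small differences on the quantile scale. Values near those of Gusb on that scale largely follow from this choice and are no separate check of them.

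By limma, with p-values adjusted over all probes tested, 4 of the 13 were higher in LPS than in DMSO at an adjusted p under 0.05, namely the β-actin gene Actb, B2m of the MHC class I complex, Gk and Tfrc. Their differences were 0.51, 0.51, 1.49 and 0.56 on the log2 scale, and the adjusted p of Gk was 3.67e-06. Lower in LPS were 3, namely G6pd2, Hprt and Tuba1b. Of all 33692 probes, 16.2% were called higher and 22.3% lower. In AdipoAI against DMSO, Tfrc was called higher at 0.74 (adjusted p = 0.00243 by limma), and Nono, an RNA-binding protein of paraspeckles, and Rpl13a were called lower at -0.57 and -0.42, beside 6.92% and 7.53% of all probes. In AdipoAI+LPS against LPS none of the 13 was called higher, also at an unadjusted p under 0.05, and Gk at -0.49, Rpl13a at -0.36 and Tbp, the TATA-binding protein, at -0.51 were called lower, beside 8.20% and 8.90% of all probes. When the scan was added as a block, limma called 0 of the 13 in this last comparison rather than 3, and 2 had an unadjusted p under 0.05. The count was also 0 by limma without AdipoAI+LPS replicate 2, where 4 had one. It was 1 without LPS replicate 1, without LPS replicate 3 and without AdipoAI+LPS replicate 1. The share of all probes called in these other fits is not given here. The lower counts can therefore not be read as particular to the 13 genes. Every gene called here had the same direction under all 5 scalings tried, but not every call held under all 5. The LPS calls of Hprt and Tuba1b were made under 3 of the 5, and the calls of Nono and Rpl13a in AdipoAI minus DMSO and of Tbp in AdipoAI+LPS minus LPS under 4. G6pd2, Gapdh, Ppia, Actb and Tuba1b have close copies in the genome, and whether their probes tell the copies apart was not given.

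**Figure D3:**
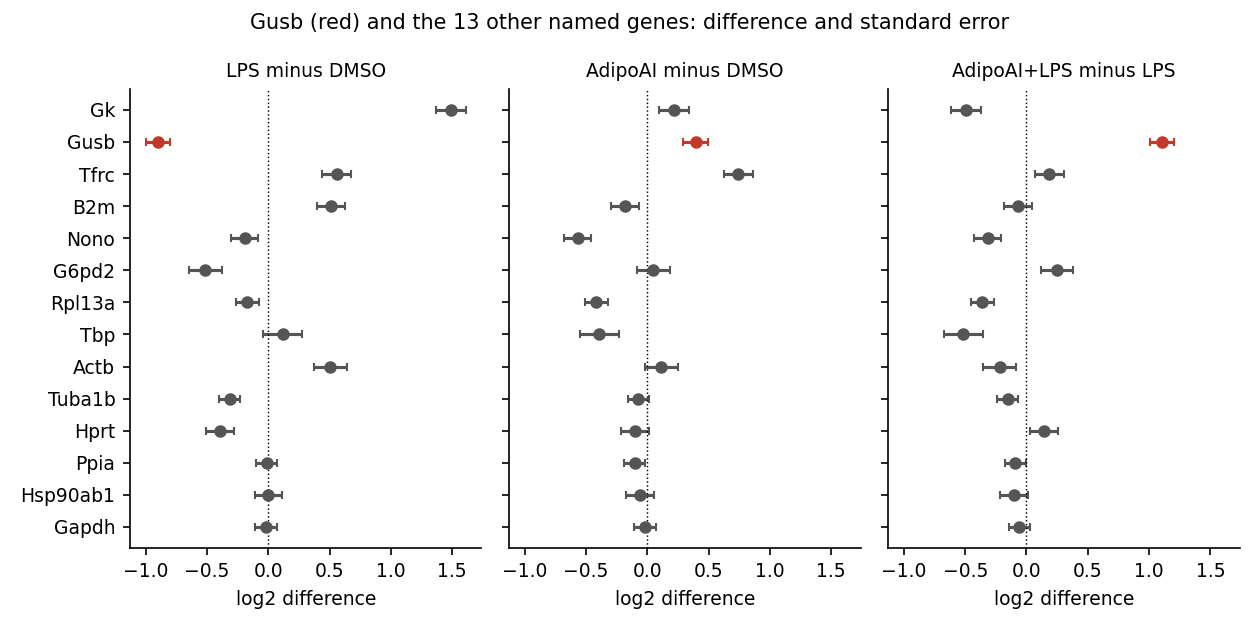
Difference on the log2 scale (horizontal axis) of Gusb, in red, and of the 13 other tested genes named by an accession (vertical axis) in LPS minus DMSO, AdipoAI minus DMSO and AdipoAI+LPS minus LPS, with bars for the standard error. Gusb lies lowest in the first panel at -0.90 and highest in the third at 1.10, while Gapdh, Ppia and Hsp90ab1 lie near 0 in all panels.

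Among these genes the range of the 4 group means was 1.29 for Gusb, second to Gk at 1.49, and was 0.07 for Gapdh, glyceraldehyde-3-phosphate dehydrogenase, 0.10 for Hsp90ab1, a cytosolic chaperone, and 0.10 for Ppia, cyclophilin A. Gusb and Gk are ranked here by values that also chose Gusb. Gk was dim, with a mean level of 5.82 in DMSO. With the background corrected by normexp, another method, its LPS minus DMSO was 0.91 in place of 1.49. DMSO was then still its lowest group and LPS its highest, so that 0.91 is also the range of its group means. The group means of Gusb by normexp ran from 13.50 in LPS to 14.79 in AdipoAI, a wider range. The order of Gk and Gusb thus depends on how background is corrected.

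Likeness to Gusb was measured as the root mean square difference, over the 12 arrays, between the log2 values of both probes after each was centred on its own mean. It is a description of pattern, and the arrays lie in 4 groups. Of 33691 other probes, 14 lay within 0.15 of Gusb and 62 within 0.20, while a probe that did not vary would lie at 0.50. The nearest probes carry only identifiers of the array maker. ASMM10P000067, at 0.11, differed by -0.81 in LPS minus DMSO, by 0.52 in AdipoAI minus DMSO and by 0.91 in AdipoAI+LPS minus LPS. ASMM10P014224, at 0.12, differed by -1.01, 0.43 and 1.04 in the same order. Both had LPS as the lowest group and AdipoAI as the highest, as Gusb did, which largely follows from picking them as the nearest to Gusb.

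Of the named genes, G6pd2, a copy of the glucose-6-phosphate dehydrogenase gene, was nearest to Gusb, at 0.35 and rank 1128. In LPS minus DMSO it differed by -0.51 (adjusted p = 0.00989 by limma), and in AdipoAI+LPS minus LPS by 0.25 (adjusted p = 0.22 by limma). Hprt, of purine salvage, was next at 0.42 and rank 2761, with an LPS difference of -0.39 (adjusted p = 0.019 by limma). Tuba1b, an α-tubulin, followed at 0.49 and rank 6228, with -0.31 (adjusted p = 0.0131 by limma). All 3 were lower in LPS than in DMSO, and none came near Gusb in AdipoAI+LPS minus LPS, where Hprt was at 0.14 and Tuba1b at -0.15. The value of Hprt in that comparison was -0.10 with no normalization between arrays.

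**Figure D4:**
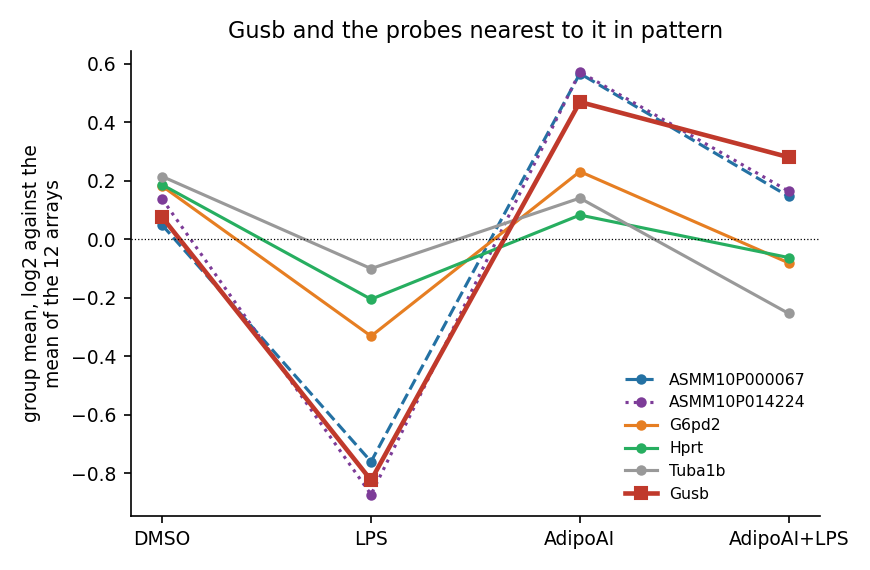
Group means of Gusb, of its 2 nearest probes and of the 3 nearest named genes (vertical axis, log2 intensity against each probe's mean over the 12 arrays) in the 4 groups (horizontal axis); lines only join the points of a probe. Gusb runs from 0.07 in DMSO to -0.82 in LPS, then to 0.47 for AdipoAI and 0.28 for AdipoAI+LPS, and its nearest probes stay close to it while the named genes span less.

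The sign of AdipoAI+LPS minus DMSO for Gusb also changed without normalization. With no normalization between arrays, AdipoAI+LPS minus DMSO was -0.029 in place of 0.21, where the median of all probes was -0.23, so that Gusb was 0.20 above that median. LPS minus DMSO lay between -1.01 and -0.82 under 14 alternatives and between -0.93 and -0.85 when 1 array at a time was removed. AdipoAI+LPS minus LPS lay between 0.89 and 1.23 under 13 alternatives, with the lowest value from no normalization, which put the median of all probes at -0.18. Several of these alternatives could not move either value. Other filters, the replicate block, the variance model and a fit of only the groups compared change the standard error alone. The scan block and the first scan alone likewise left LPS minus DMSO as it was.

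**Figure D5:**
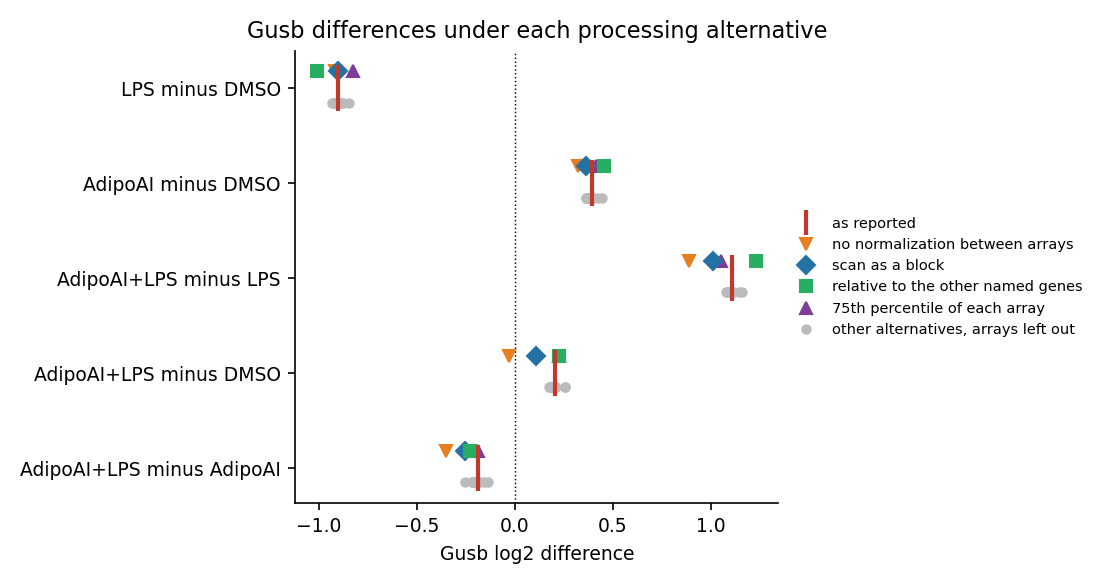
Gusb differences on the log2 scale (horizontal axis) for 5 pairs of groups (vertical axis), with a red bar for the value as reported, coloured marks for 4 other scales or blocks, and grey points for the other alternatives and for each array left out in turn. The marks keep to 1 side of 0 for all pairs but AdipoAI+LPS minus DMSO, which is -0.029 without normalization.

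Lysosomal genes other than Gusb and markers of macrophages or other cell types were not analysed here, because the files used pair none of the 41 lysosomal genes and 12 markers listed for it with a probe. The cell type in the labels was therefore not checked against its markers.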

How the data were processed

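RNA of RAW264.7 cells was hybridised to 12 Arraystar arrays of mouse lncRNAs and mRNAs. The authors' deposited scanner files, from Agilent Feature Extraction 11.0.1.1 per the labels, hold the intensity of every spot on a linear scale, with the background subtracted and trends across the array removed by the scanner software, and with no scaling between arrays, beside quality flags of 0 or 1. A deposited series table holds processed log2 values that the authors made from these arrays, by quantile normalization according to the methods.

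Control spots, negative probes and 221 probes with a spot flagged as an outlier were left out, and probes of 20 spots were averaged over all spots. Quantile normalization was applied to the log2 intensities. A probe had to be well above background on 3 arrays or more, and the 33692 that were went into 1 model of 4 groups with limma 3.58.1 in R 4.3.3, and p-values were adjusted after Benjamini-Hochberg over all of them. The fit was tested on simulated data. An array had 29298 to 32969 probes well above background, and 3 arrays per group limit the precision. The gene, the lists and the tests were chosen with earlier results of these data known. The rule for naming took Gusb, the genes named by accession, the 3 of these nearest to Gusb and the 2 nearest identifiers. All 15 accessions matched a symbol in the RefSeq table of GRCm38.p6. Alternatives changed the scale, the way background was corrected, the filter, the averaging of spots, the variance model and the arrays fitted, used the series table, blocked on scan or replicate number, or removed 1 array at a time. Figures used Python 3.11.15 and matplotlib 3.10.9.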

Additional observations from a re-analysis of the deposited data

How the results depend on the processing

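Under no normalization between arrays, AdipoAI+LPS minus LPS was 0.89 for Gusb, AdipoAI+LPS minus AdipoAI was -0.35, the interaction was 0.57 and AdipoAI+LPS minus DMSO was -0.029, a change of sign. Against single reference genes, other Gusb differences changed sign too, as given with those genes. The scan as a block gave 1.01 for AdipoAI+LPS minus LPS and 0.11 for AdipoAI+LPS minus DMSO. Relative to the other named genes, LPS minus DMSO was -1.01 and AdipoAI+LPS minus LPS was 1.23. On removal of 1 array at a time, the differences lay between -0.93 and -0.85 for LPS minus DMSO, 0.36 and 0.45 for AdipoAI minus DMSO, 1.07 and 1.16 for AdipoAI+LPS minus LPS, 0.18 and 0.26 for AdipoAI+LPS minus DMSO, -0.22 and -0.14 for AdipoAI+LPS minus AdipoAI, and 0.66 and 0.76 for the interaction. Under the other alternatives the values of Gusb moved by less than its spread between arrays, and several of these could change only the standard error.

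Among the 13 other named genes, the count called in AdipoAI+LPS minus LPS was 3, and was 0 with the scan as a block, 5 with eBayes trend and robust variances, and 0 to 3 with each array left out. The counts of 7 in LPS minus DMSO and 3 in AdipoAI minus DMSO stayed within 1.5 times, at 5 to 7 and 2 to 3 with arrays left out. The cause of these moves was not tested. The share of all probes called under the alternatives is not given here, so the counts cannot be read as particular to the 13 genes.

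With the replicate number as a block, the Gusb differences were unchanged at -0.90, 0.39 and 1.10 with a standard error of 0.11, and the AdipoAI+LPS minus LPS count was 1. No sign of pairing by number was seen. Of 18 pairs with the same number 1 had deviations correlated above 0.1, against 11 of 36 pairs with different numbers. Of the 12 arrays, 0 correlated best with their own number. Such correlations cannot show that arrays of the same number did not share a culture or handling. The mean of the spots without outlier flags was added after the data were seen. All Gusb spots were well above background. The values rest on 3 arrays per group, and LPS and AdipoAI+LPS shared no scan.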
